A study of Mus musculus with 12 samples.

Results

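The levels of 9 B and plasma cell genes, Ms4a1, Cd79a, Cd79b, Cd22, Blk, Pax5, Mzb1, Pou2af1 and Fcrla, were followed on 12 mouse kidney arrays. The genes were taken by their names on the array, not by their values, and they are 9 of 37325 gene and transcript names, with 14 of 56605 probes. On these one-colour Agilent arrays Cy3-labelled RNA from a whole kidney binds to printed probes of 60 bases and each spot is read as a brightness. The 12 kidneys came from male C57/6J mice in 4 groups of 3. Wild-type (WT) mice and mice that lack Jaml (knockout, KO) had either sham surgery or ischemia-reperfusion injury (IRI), a stop of renal blood flow followed by its return, and IRI kidneys were taken at 24 h. For the length of ischemia, the series text names 40 min (clamping) while the protocol names 30 min (ligation), and the labels do not settle it. The sources used here give neither age nor knockout allele. The series text calls the 3 samples of a group independent, so each array was taken as 1 mouse.

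B lymphocytes recognise antigen through a membrane immunoglobulin that signals through a pair of attached chains, CD79A and CD79B. Once activated they can become plasma cells, which shut down much of the B cell programme, enlarge their secretory machinery and release antibody. A healthy kidney holds few of either, and B cells are known to enter it in several forms of kidney injury. In RNA from a whole kidney, fewer cells of a type and less RNA per cell cannot be told apart, and this holds for every difference given here.

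The probes that the results turn on are shown first, because several of these genes are measured by probes that do not behave alike. The first 30 bases of each are printed 5′ to 3′, as deposited, with positions on mouse build mm9. Fcrla has 1 probe, on the minus strand at chr1:172848103-172848162. Ms4a1 has a first probe at chr19:11325409-11325468 and a second at chr19:11324334-11324393, both on the minus strand. Cd22 has 4 probes on the minus strand of chromosome 7, and those at chr7:31651249-31651308 (called probe 1 here), chr7:31665113-31665172 (probe 2) and chr7:31651590-31651649 (probe 3) are shown. Capitals mark tandem copies of the 4-base unit CCAA. An exon map of mm9 was not used here, so the exons and untranslated regions under the probes are not given.
Fcrla: ctgttcgagtgtaaataaatgcatacaggg
Ms4a1 probe 1: cagaaatgtaatgggttcccagatctcaaa
Ms4a1 probe 2: ccgctatgcctggagaggatggggaggtgg
Cd22 probe 1: gaaaaatgaaaaaCCAACCAACCAACCAAa
Cd22 probe 2: agggcctgctgtgttttttcatctacttta
Cd22 probe 3: ggaggatgagagcatccattactcagagct
The probe that stands for Cd22 in the comparisons, probe 1, holds 4 tandem copies of CCAA. Of the 56605 probes on the array, 3 others hold as many, and none of the other 13 member probes does.

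Signal from most of these genes was low in kidney, while Cd79b, Mzb1 and Cd22 by probe 1 lay above the median spot signal of every array. A level here is the log2 of the processed signal minus the 75th percentile of its array, so 0 is a fairly bright probe, and the dimmest probes well above background lay between -6.38 and -5.60, depending on the array. Of the 9 genes, Cd79b, Mzb1, Pax5 and Cd22 had a probe well above background on all 12 arrays, Pou2af1 on 11, Fcrla on 8 and Ms4a1 on 7. Cd79a and Blk were well above background on 0 arrays. The number of the 9 genes detected was 7 on each of the 3 WT sham arrays, 6, 7 and 6 on the WT IRI arrays, 6, 7 and 7 on the KO sham arrays, and 5, 4 and 5 on the KO IRI arrays. The KO IRI arrays thus had the fewest members. Their share of all probes well above background was 65.2% to 68.1%, beside 62.9% to 67.1% on the other arrays, and KO IRI replicate 2, with the fewest members, had the 65.2%; the part of overall detection in these counts was not tested. With a defining B cell gene such as Cd79a below background everywhere, the arrays give a weak picture of B cells, and the 7 genes that could be compared are those that passed a filter of at least 3 arrays well above background. Ms4a1 passed it with 6 sham arrays and 1 IRI array, and Fcrla with 5 sham arrays and 3 WT IRI arrays, so both were kept mainly through the sham kidneys.

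**Figure D1:**
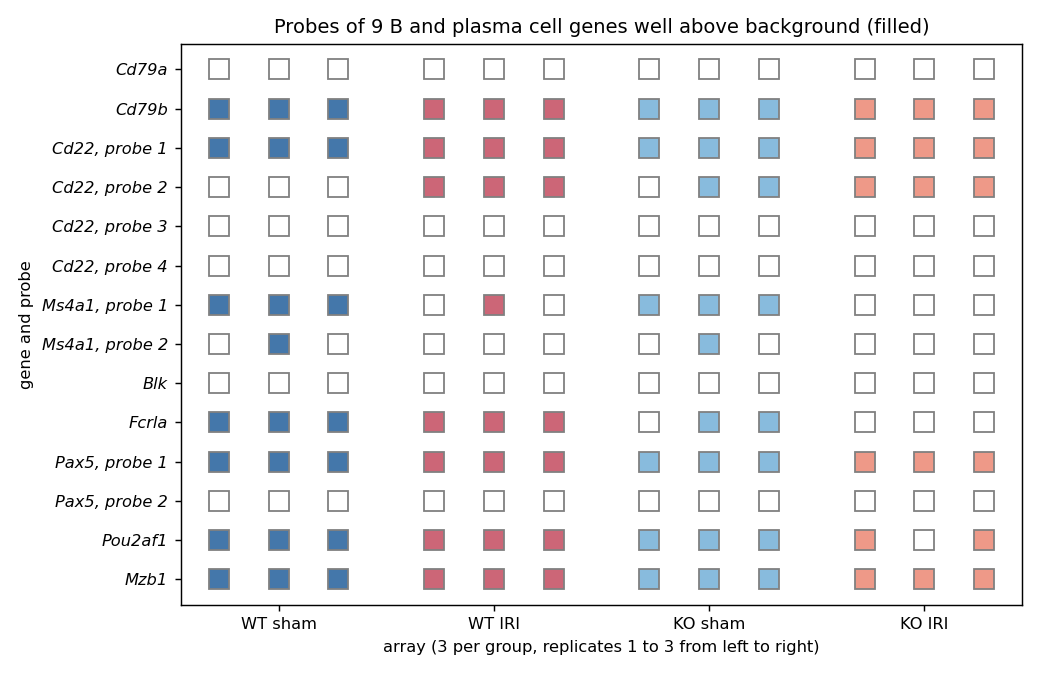
Detection of the 14 probes of 9 B and plasma cell genes on 12 arrays; rows are probes, columns are arrays in 4 groups of 3, and a filled square marks a probe well above background. Cd79a and Blk are empty on all 12 arrays, Ms4a1 and Fcrla are empty on the 3 KO IRI arrays, and the probes of Cd22, Pax5 and Ms4a1 do not match each other.

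Cd79a and Cd79b encode the paired signalling chains of the B cell receptor. The level of Cd79b was -0.65, -1.18 and -1.39 in WT sham kidneys and -1.87, -1.40 and -2.04 in WT IRI kidneys. In KO sham kidneys it was -1.39, -1.12 and -0.97 and in KO IRI kidneys -1.95, -1.66 and -2.38. Every IRI kidney lay below every sham kidney of its genotype, although in WT the highest IRI array and the lowest sham array were nearly level. The log2 difference of IRI minus sham was -0.70 ± 0.25 (SE, n = 3 and 3) in WT kidneys and -0.84 ± 0.25 in KO kidneys, and neither passed the threshold of 0.05 after adjustment over all 25947 genes tested (limma, adjusted p = 0.0985 and 0.0839). The KO and WT kidneys differed by -0.09 ± 0.25 after sham and by -0.23 ± 0.25 after IRI, both within the spread. Cd79a, its partner, gave levels between -7.26 and -5.82 over the 12 arrays with no array well above background, so no comparison of it was made.

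Cd22, an inhibitory co-receptor of the B cell receptor, depended on the probe read. By probe 1, the one with the repeat, its level was -1.71, -2.38 and -1.32 in WT sham, -1.85, -2.35 and -1.81 in WT IRI, -1.92, -1.69 and -1.75 in KO sham and -2.37, -2.23 and -2.89 in KO IRI kidneys. The 3 KO IRI kidneys lay below the 3 KO sham kidneys, and the WT groups overlapped. The difference of IRI minus sham was -0.71 ± 0.27 in KO (adjusted p = 0.167) and -0.20 ± 0.27 in WT kidneys (adjusted p = 0.667). By probe 2, well above background on 8 arrays but on 0 of the WT sham arrays, the same fitted differences were 0.05 ± 0.28 and 0.31 ± 0.28 (adjusted p = 0.942 and 0.506). The fitted sign turned in both, but all levels of probe 2 lay between -6.59 and -5.09, near the floor, so it gives no direction either. Probe 3, which lies close to probe 1, and the 4th probe were well above background on 0 of 12 arrays. Whether the signal of probe 1 comes from Cd22 was not tested, and no direction is given for Cd22.

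Ms4a1 encodes CD20, a surface protein of mature B cells. Its level by probe 1 was -5.48, -5.46 and -5.68 in WT sham kidneys and -5.20, -4.08 and -4.38 in KO sham kidneys. In WT IRI kidneys it was -8.13, -5.66 and -7.53, and in KO IRI kidneys -7.09, -7.05 and -6.60. All 6 sham arrays were well above background, whereas of the 6 IRI arrays only WT IRI replicate 2 was, at a level just above that of WT sham replicate 3. Ms4a1 fell in KO kidneys after IRI and was at least 3.13-fold lower than after sham (adjusted p = 0.0295, fitted log2 difference -2.36 ± 0.53). The fold is a bound because no KO IRI array measured the gene above background. It sets the KO sham mean against the KO IRI arrays, each at its dimmest signal well above background or at the probe's signal where that is higher. In WT kidneys the difference was -1.57 ± 0.53 and missed the threshold (adjusted p = 0.082). The response of KO minus that of WT was -0.79 ± 0.75 (adjusted p = 0.728), so the genotypes were not shown to differ in it. The call in KO kidneys rested on all 6 KO arrays, since without any one of them the adjusted p lay between 0.0552 and 0.103, with a difference of -2.68 to -2.13. With another background correction that adds a constant to every spot (normexp), the difference shrank to -0.65 and kept its call (adjusted p over all alternatives 0.00266 to 0.103). Probe 2 of Ms4a1 was well above background on 2 arrays, WT sham replicate 2 at -5.99 and KO sham replicate 2 at -5.68, and was not tested. Between sham kidneys the 3 KO arrays lay above the 3 WT arrays, with a difference of 0.99 ± 0.53 that did not pass (adjusted p = 0.29).

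Blk encodes a Src-family kinase that acts below the B cell receptor. Its 1 probe, which spans 1138 bases of chromosome 14 and so crosses at least 1 intron, gave levels between -8.68 and -7.87, at the floor of every array.

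Fcrla encodes an intracellular Fc receptor-like protein found mainly in B cells, and among the 9 genes it gave the lowest adjusted p in each comparison of IRI with sham. Its level was -3.83, -3.63 and -4.27 in WT sham kidneys and -5.03, -5.47 and -5.88 in WT IRI kidneys. In KO sham kidneys it was -5.69, -4.60 and -5.22, and in KO IRI kidneys -6.98, -8.35 and -8.08. No WT IRI array reached a WT sham array, no KO IRI array reached any array of the other groups, and the KO sham arrays lay below WT sham and among or near the WT IRI arrays. Fcrla fell after IRI in WT kidneys, by 1.55 ± 0.39 on the log2 scale (2.93-fold lower, adjusted p = 0.0309). It also fell in KO kidneys, where it was at least 2.04-fold lower (adjusted p = 0.00608, fitted difference -2.64 ± 0.39). After IRI it was at least 1.67-fold lower in KO than in WT kidneys (adjusted p = 0.0178, fitted difference -2.35 ± 0.39). After sham the KO minus WT difference was -1.26 ± 0.39 and did not pass (adjusted p = 0.0762). The response to IRI was -1.09 ± 0.55 in KO relative to WT (adjusted p = 0.536), which does not show a different response.

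The KO call of Fcrla after IRI against sham was kept in every alternative fit run, with adjusted p between 0.000369 and 0.0292. Of the WT sham arrays, leaving out the first or the second ended the WT call, as did leaving out WT IRI replicate 3 or KO sham replicate 3 (adjusted p 0.0986, 0.109, 0.0991 and 0.0505), with differences of -1.51, -1.41, -1.34 and -1.55, and in a fit to the WT arrays alone (0.0593); over all alternatives the adjusted p ran from 0.000741 to 0.109. The call between KO and WT after IRI was lost without KO IRI replicate 2 or 3 (adjusted p = 0.0725 and 0.053, differences -2.07 and -2.21) and in a fit to the IRI arrays alone (0.132), with a range of 0.0077 to 0.219. The difference after sham was called under quantile normalization (-1.41, adjusted p = 0.0415) and 4 other alternatives, with a range of 0.00105 to 0.256. With normexp the differences of Fcrla shrank to -0.50 in WT, -0.52 in KO and -0.31 between the genotypes after IRI (adjusted p = 0.0228, 0.0263 and 0.219). All 6 WT arrays were on 1 slide and all 6 KO arrays on another, with scans to match, so genotype and slide cannot be told apart in any KO against WT difference, whereas IRI and sham were compared within a slide.

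**Figure D2:**
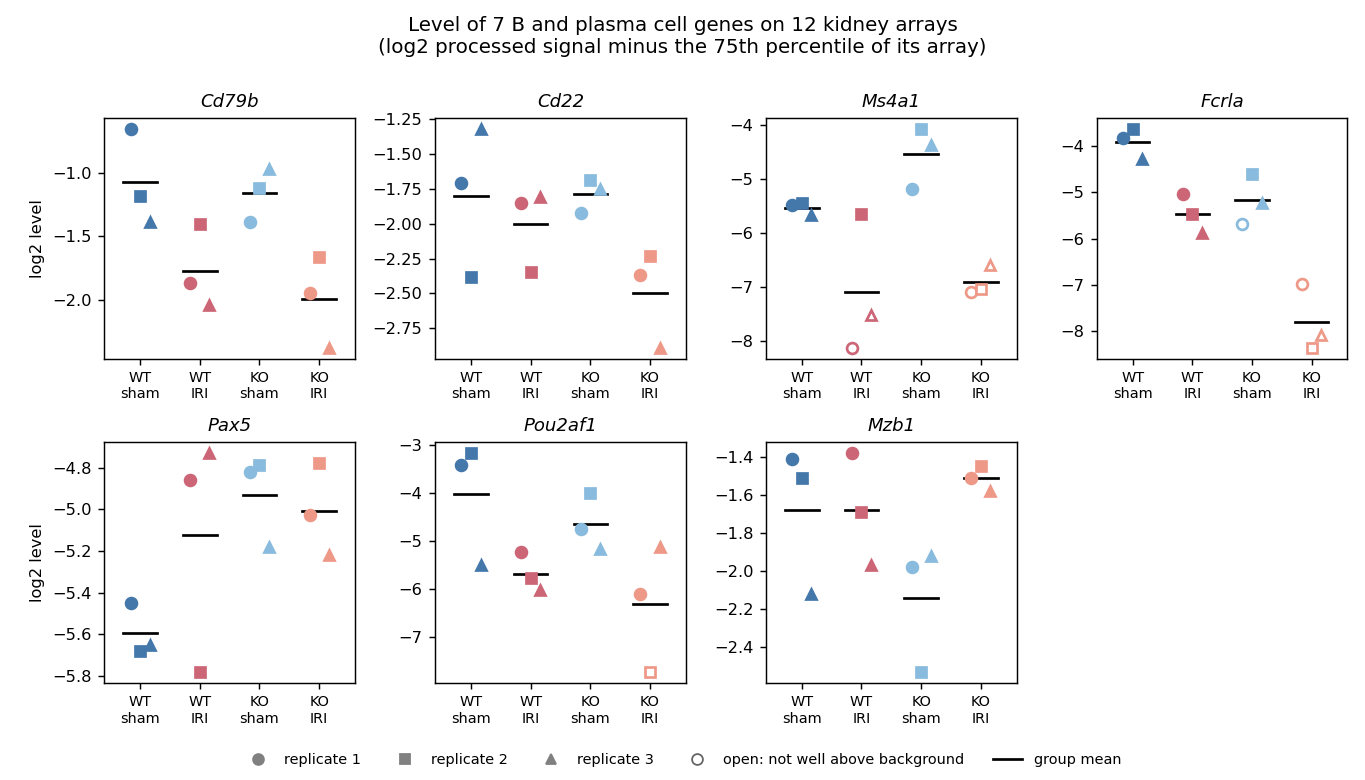
Levels of the 7 B and plasma cell genes that passed the filter, on the log2 scale relative to the 75th percentile of each array; each point is 1 kidney, shapes are replicates, open points are not well above background, bars are means of 3, and each panel has its own axis. Fcrla is highest in WT sham and lowest in KO IRI, the Ms4a1 points of KO IRI are all open, and the WT groups of Mzb1 overlap.

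Pax5 and Pou2af1 are regulators of the B cell programme. Pax5 is the transcription factor that holds B cell identity, and plasma cells switch it off. Its level was -5.45, -5.68 and -5.65 in WT sham, -4.86, -5.78 and -4.73 in WT IRI, -4.82, -4.79 and -5.18 in KO sham and -5.03, -4.78 and -5.22 in KO IRI kidneys. The WT sham arrays were low and close together, WT IRI replicate 2 lay with them, and the other 8 arrays overlapped. The difference was 0.47 ± 0.26 after IRI in WT kidneys, -0.08 ± 0.26 in KO kidneys, and 0.66 ± 0.26 for KO minus WT after sham (adjusted p = 0.257, 0.891 and 0.141). The second Pax5 probe stayed below that mark on all 12.

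Pou2af1 encodes OCA-B, a B cell coactivator that binds with octamer factors. Its level was -3.42, -3.16 and -5.50 in WT sham, -5.23, -5.78 and -6.03 in WT IRI, -4.75, -4.0 and -5.16 in KO sham and -6.10, -7.73 and -5.12 in KO IRI kidneys. WT sham replicate 3 and KO IRI replicate 3 fell into the range of the group each was compared with. The difference was -1.65 ± 0.72 in WT and -1.68 ± 0.72 in KO kidneys, both about as large as that of Fcrla in WT but with a wider spread (adjusted p = 0.158 and 0.213). Over the 12 arrays the levels of Pou2af1 and Fcrla had a Pearson r of 0.76, the highest of the 21 member pairs, and 0.54 after the group means were removed; both come from the same 12 arrays, and the genes share each array's scaling.

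Mzb1 encodes an endoplasmic reticulum protein that helps antibody assembly in marginal zone B cells and plasma cells. Its level was -1.41, -1.51 and -2.12 in WT sham, -1.38, -1.69 and -1.97 in WT IRI, -1.98, -2.53 and -1.92 in KO sham and -1.51, -1.45 and -1.58 in KO IRI kidneys. The WT groups overlapped fully, and the KO IRI arrays lay above the KO sham arrays. The difference of IRI minus sham was 0.00 ± 0.23 in WT kidneys (95% interval -0.52 to 0.51) and 0.63 ± 0.23 in KO kidneys (adjusted p = 0.998 and 0.15), the only member with a difference above 0 in KO.

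Read as a set, the members gave few calls. Of the 7 genes tested, 1 fell after IRI in WT kidneys and none rose, where 5.9% of all genes tested fell (6.08% rose, 12% in either direction). In KO kidneys 2 fell and none rose, where 4.05% of all genes fell and 2.1% rose (6.16% in either direction). Between sham kidneys no member was called by limma, where 8.85% of all genes were (5.12% higher, 3.73% lower in KO). Pax5 and Fcrla, 2 of the 7, had an unadjusted p under 0.05 there. Other fits called up to 5, and the fit with 5 (array weights) called 37.6% of all genes. After IRI 1 was lower in KO, where 1.02% of all genes were lower and 0.91% higher (1.93% in either direction). For the difference between the responses no member was called and none had an unadjusted p under 0.05, and 0.0694% of all genes were called (0.0193% higher, 0.0501% lower). Under quantile normalization the calls over all genes shifted from 546 higher and 1052 lower to 805 and 819 in KO kidneys after IRI, and from 1329 and 968 to 828 and 1093 between sham kidneys. The median log2 difference over the 7 genes was -0.70 in WT and -0.84 in KO kidneys, beside medians over all genes tested of -0.01 and -0.08. Ms4a1, Cd79b, Pou2af1 and Fcrla were below 0 in both genotypes. Between the genotypes the medians were -0.09 after sham and -0.23 after IRI, beside 0.12 and 0.04 over all genes. Because the filter kept Ms4a1 and Fcrla mainly through their sham arrays, these medians are descriptions of 7 genes and not of all 9.

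Groups that did not overlap were common on these arrays. In WT kidneys IRI and sham did not overlap for 2 of the 7 genes, Cd79b and Fcrla, as for 32.3% of all genes. In KO kidneys they did not overlap for 5 of 7, a larger share than the 35.7% of all genes. Ms4a1, Cd79b and Fcrla were lower, Mzb1 higher and Cd22 lower by probe 1 only. KO and WT did not overlap for 3 of 7 after sham (Fcrla lower, Ms4a1 and Pax5 higher; 42.7% of all genes) and for Fcrla alone after IRI (21.8%). Outside the KO comparison of IRI with sham, the order of arrays by itself therefore said little about these genes. The larger share in that comparison was not tested, and Ms4a1 and Fcrla had been kept mainly through sham arrays. Only Fcrla and Ms4a1 gave differences past the threshold.

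**Figure D3:**
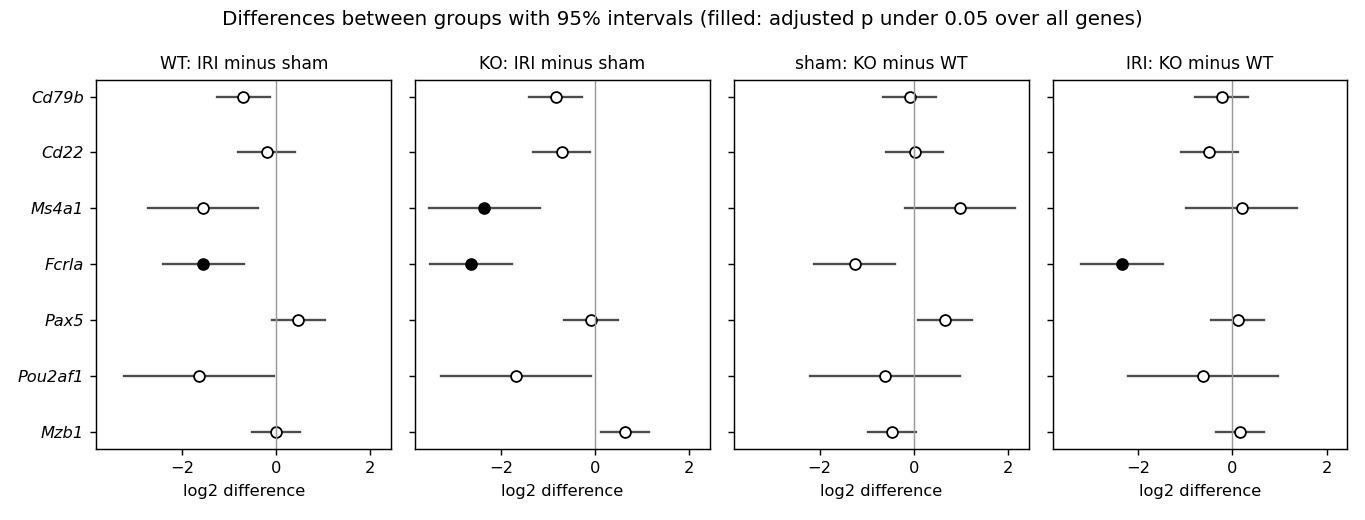
Log2 differences of the 7 genes in 4 comparisons; points are fitted differences, lines are 95% intervals from the limma fit over 12 arrays, and filled points passed an adjusted p of 0.05 over 25947 genes. Fcrla is filled in 3 comparisons, Ms4a1 in KO IRI against KO sham, and no other point is filled.

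The promoters of the genes were examined because Fcrla and Pou2af1 varied together. The RefSeq table for GRCm38.p6 held a start site for Cd79a, Cd22, Pax5, Pou2af1 and Fcrla among the members used. A window of 300 bases, 250 before to 50 after the start, was searched on both strands for the octamer ATGCAAAT, for the EBF1 core CCCNNGGG, for the PU.1 core GAGGAA and for the E2A E-box CAGGTG. The 250 bases before the start of Fcrla (minus strand of chromosome 1) and Pou2af1 (plus strand of chromosome 9) follow, 5′ to 3′, with matches in capitals.
Fcrla: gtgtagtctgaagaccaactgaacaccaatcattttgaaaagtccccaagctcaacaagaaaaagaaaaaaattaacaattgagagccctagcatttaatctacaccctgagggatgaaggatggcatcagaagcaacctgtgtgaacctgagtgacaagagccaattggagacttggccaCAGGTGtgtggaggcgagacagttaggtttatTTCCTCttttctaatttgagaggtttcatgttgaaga
Pou2af1: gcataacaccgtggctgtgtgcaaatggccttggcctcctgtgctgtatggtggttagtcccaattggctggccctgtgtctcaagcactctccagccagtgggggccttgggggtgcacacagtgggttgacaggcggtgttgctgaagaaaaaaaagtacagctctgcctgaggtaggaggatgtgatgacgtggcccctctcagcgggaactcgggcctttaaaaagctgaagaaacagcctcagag
Fcrla held the E-box starting at -69 and the PU.1 core, read on the other strand as TTCCTC, starting at -37. Pou2af1 held none in these 250 bases and a GAGGAA after its start, at position 19. Of the 5 promoters, 3 held the E-box and 3 the PU.1 core, beside 20.2% and 28.3% of 32851 promoters; 1 held the EBF1 core (13.7%) and none the octamer (1.74%). These are matches of letters and not sites.

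Other genes of the B cell programme were read beside the members, from lists written with earlier results of these data known. The list counts here and below stand beside the shares over all genes tested. After IRI 5.9% fell and 6.08% rose in WT kidneys, and 4.05% fell and 2.1% rose in KO kidneys. In KO against WT, 3.73% were lower and 5.12% higher after sham, and 1.02% lower and 0.91% higher after IRI. Of 16 further surface and identity genes measured, 4 fell and 1 rose in WT kidneys after IRI, with a median of -0.56. H2-Ob, a chain of a class II family protein of B cells, fell by 1.94 ± 0.31 (adjusted p = 0.00699). Cd180, a Toll-like receptor relative on B cells, fell by 1.22 ± 0.26. Tnfrsf13b, the survival receptor TACI, fell by 1.21 ± 0.22 and Cd72, an inhibitory co-receptor, by 1.06 ± 0.26. Fcmr, the receptor for IgM, rose by 1.91 ± 0.40 (adjusted p = 0.0163). H2-Ob and Tnfrsf13b kept their calls with any 1 array left out, whereas those of Cd72, Cd180 and Fcmr were lost without any one of 5, 3 and 1 arrays (adjusted p up to 0.0952, 0.0643 and 0.0636), and the 4 became 2 to 5. Of 3 further Cd180 probes, 2 also passed (-2.66 and -1.56, adjusted p = 0.0277 and 0.0333) and the other gave -0.12 ± 0.23, and a further Tnfrsf13b probe gave -0.28 ± 0.19 (adjusted p = 0.348). Between sham kidneys Cd72 and Tnfrsf13b were lower in KO, by -1.99 ± 0.26 and -1.14 ± 0.22 (adjusted p = 0.00382 and 0.0134), and Fcmr was higher by 1.78 ± 0.40 (adjusted p = 0.0242); of these, Cd72 kept its call with any 1 array left out and the others lost it without any one of 4. In KO kidneys 3 of the 16 fell and none rose, with a median of -0.55, and without KO sham replicate 1 or 3 only 1 did.

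Fcer2a, the low-affinity IgE receptor CD23 of mature B cells, fell in KO kidneys by 1.73 ± 0.32 (adjusted p = 0.015), from -4.33, -4.30 and -3.97 to -5.03, -6.18 and -6.59, with 1 of the 3 KO IRI arrays well above background; its call was lost without KO sham replicate 1 or 3 (adjusted p up to 0.066). H2-Ob fell there too, by 1.36 ± 0.31 (adjusted p = 0.0326), a call lost without any one of 7 arrays and under quantile normalization. In KO kidneys Ms4a1 and Fcer2a, both genes of mature B cells, were thus lower after IRI, each from KO sham levels that did not overlap the WT sham levels and lay above them without passing the test (adjusted p = 0.29 and 0.446). The pair was set side by side after their values were seen.

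Among 14 transcription factors of the B lineage, 2 fell in WT kidneys after IRI, with a median of -0.28. Spib, a factor of B cells and plasmacytoid dendritic cells, fell by 1.54 ± 0.37 (adjusted p = 0.0255) and Ikzf1, the lymphoid factor Ikaros, by 1.62 ± 0.39 (adjusted p = 0.0262), and both calls were lost when WT IRI replicate 3, or replicate 1 or 2 of WT sham, was left out (adjusted p up to 0.0995). In KO kidneys 1 of 14 fell, Bcl6, the germinal centre repressor, by 1.80 ± 0.32, while its other probe gave 0.03 ± 0.34, and the call was lost without KO sham replicate 1 or 3. Between sham kidneys 4 were lower and 1 higher in KO. Pou2f2, the octamer factor OCT2 that OCA-B binds, was at least 2.63-fold lower in KO (adjusted p = 0.0432), and Ikzf1, Irf8 and Spi1 were lower by -1.93 ± 0.39, -1.54 ± 0.35 and -0.95 ± 0.24. None of the 4 was firm: the call of Pou2f2 was lost without any one of 8 arrays, with normexp and with the replicate number as a block, that of Spi1 without any one of 7, with normexp and with the block, and those of Ikzf1 and Irf8 without any one of 4 and 2 (adjusted p up to 0.145, 0.121, 0.0695 and 0.105). Bcl6 was higher by 1.63 ± 0.32 with its other probe at -0.27. Several of these factors also act in other blood cells.

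Of 18 genes that relay the B cell receptor signal, most of which other leukocytes use as well, 5 fell in WT kidneys after IRI and none rose (median -0.38), whereas in KO kidneys 1 fell and 1 rose (median -0.08). Pik3cd and Prkcb, a lipid kinase subunit and a protein kinase C, fell in WT kidneys by 1.27 ± 0.36 and 1.04 ± 0.27, calls lost without any one of 9 and 6 arrays (adjusted p up to 0.157 and 0.127). Fcgr2b, the inhibitory Fc receptor, fell in both genotypes, by 0.73 ± 0.15 in WT and 0.99 ± 0.15 in KO (adjusted p = 0.0165 and 0.00678), and its WT call was lost without any one of 3 WT arrays. Inpp5d, the inhibitory phosphatase SHIP1, fell by 0.46 ± 0.12 in WT and rose by 0.55 ± 0.12 in KO kidneys (adjusted p = 0.0295 and 0.0229). Each of these Inpp5d calls was lost without any one of 4 arrays (adjusted p up to 0.102 and 0.101) and with the replicate number as a block, and the difference between the responses did not pass (1.02 ± 0.16, adjusted p = 0.0802). Between sham kidneys 8 of the 18 were lower in KO and none higher (median -0.59), among them the exchange factor Vav1 (-1.70 ± 0.23, adjusted p = 0.00406), Pik3cd (-1.68 ± 0.36) and Prkcb (-1.47 ± 0.27). After IRI 1 was lower in KO, the kinase Syk by -0.99 ± 0.19 (adjusted p = 0.0327), with -0.26 by its other probe; the call was lost without any one of 5 arrays (adjusted p up to 0.121) and with the replicate number as a block. Of the 8, Syk, Pik3cd and Prkcb had a further probe with a difference above 0, and the slide limit holds for all. Without 1 array the 5 in WT became 1 to 7 and the 8 became 2 to 8 (2 without KO sham replicate 1).

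Some antibody genes differed widely after IRI in WT kidneys and others did not. Jchain, the chain that joins antibody units in IgA and IgM, was at 0.03, -0.04 and -2.47 in WT sham and -4.02, -4.11 and -4.47 in WT IRI kidneys. In KO sham kidneys it was at -0.72, 0.65 and -0.88 and in KO IRI kidneys at -2.48, -2.30 and 0.14. WT sham replicate 3 lay well below the other WT sham arrays, and KO IRI replicate 3 lay at the sham level. Jchain fell in WT kidneys by 3.37 ± 0.81 (adjusted p = 0.0257), and the KO difference of -1.23 ± 0.81 did not pass (adjusted p = 0.426).

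Iglv1, a lambda light chain variable gene, gave the same arrangement of arrays. It was at -2.44, -2.59 and -3.95 in WT sham and -8.15, -8.38 and -7.23 in WT IRI kidneys, and at -2.07, -2.45 and -2.13 in KO sham and -6.02, -5.80 and -1.41 in KO IRI kidneys. No WT IRI array was well above background, and Iglv1 was at least 9.14-fold lower than after sham (adjusted p = 0.016, fitted difference -4.93 ± 1.02). In KO kidneys the difference was -2.19 ± 1.02 (adjusted p = 0.251), and without KO IRI replicate 3 it was -3.69 ± 0.46 (adjusted p = 0.0103). Igh-VJ558, an array name for a large family of heavy chain variable genes, fell in WT kidneys by 3.80 ± 0.84 (adjusted p = 0.0201), from -1.22, -1.30 and -3.78 to -5.44, -6.17 and -6.09. In KO kidneys it went from -1.88, -0.27 and -1.82 to -3.17, -3.20 and -0.58, a difference of -0.99 ± 0.84 (adjusted p = 0.554). Its other kept probe gave -0.12 ± 0.22 in WT kidneys, and probes of such families can bind transcripts of many related genes. The WT calls of Jchain, Iglv1 and Igh-VJ558 were each lost without WT sham replicate 1 or 2 (adjusted p up to 0.0981), and those of Jchain and Igh-VJ558 also without WT IRI replicate 3. Of 9 immunoglobulin names found on the array, 5 were measured, 2 fell in WT kidneys and none was called in KO kidneys, where 1 had an unadjusted p under 0.05. The other 3 in WT were Ighv1-33 at -2.77 ± 0.82, Ighg3 at -1.19 ± 0.39 and Igkv4-72 at 0.03 ± 0.23 (adjusted p = 0.053, 0.0748 and 0.951). Without KO IRI replicate 3 the KO differences of Jchain, Igh-VJ558 and Ighg3 stayed uncalled, at -2.07 ± 0.72, -1.86 ± 0.76 and -0.42 ± 0.44. Their limma adjusted p was 0.172, 0.248 and 0.697. Ighv1-33 was called in that fit, at -2.89 ± 0.62 (adjusted p = 0.0436), as Iglv1 was.

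**Figure D4:**
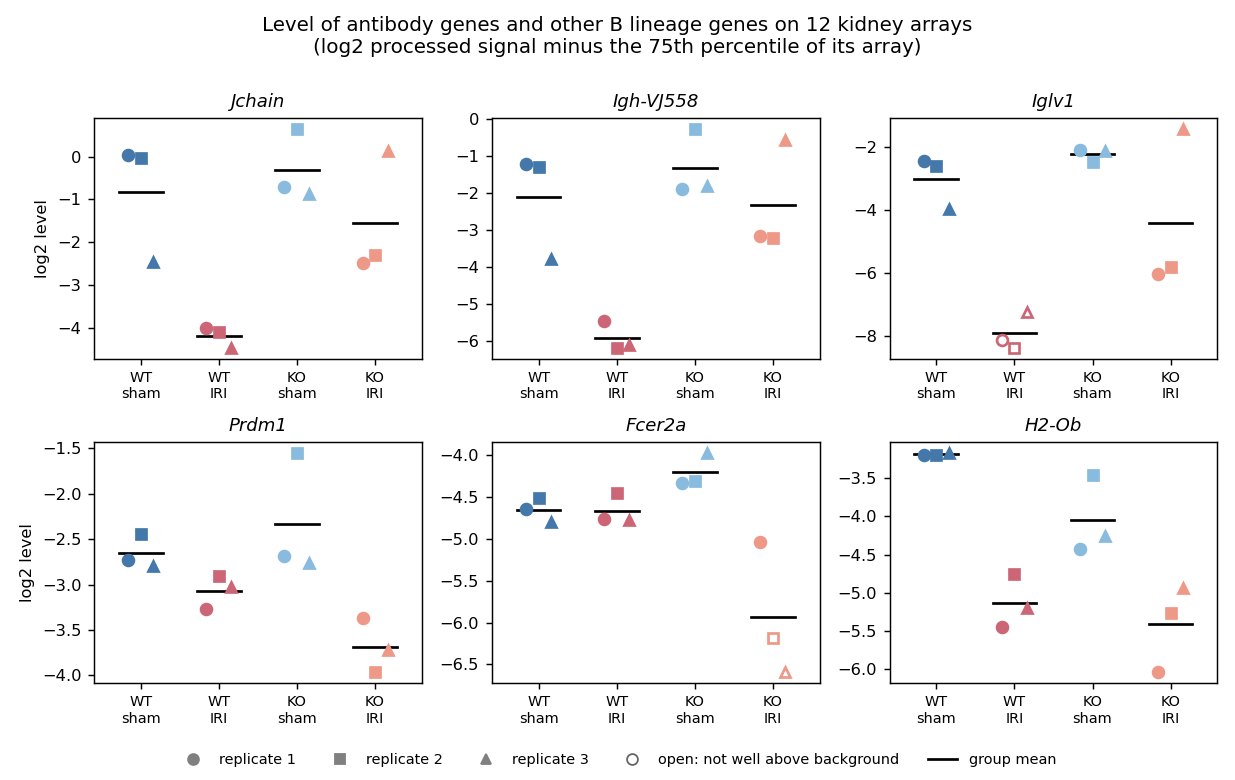
Levels of 3 antibody genes and 3 other B lineage genes on 12 arrays, on the log2 scale relative to the 75th percentile of each array; each point is 1 kidney, shapes are replicates, open points are not well above background, bars are means of 3, and each panel has its own axis. In the antibody genes KO IRI replicate 3 lies with or above the KO sham arrays, while in Prdm1, Fcer2a and H2-Ob it lies below all KO sham arrays.

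The array that stood apart in antibody genes was also the highest KO IRI array for Pou2af1, at -5.12, just above the lowest KO sham array. In other members it stood with its group. KO IRI replicate 3 was at -6.60 for Ms4a1 and -8.08 for Fcrla, both below background, and at -1.58 for Mzb1, the lowest of its group. Of 12 plasma cell and secretion genes measured, 1 fell and 1 rose in each genotype after IRI. Jchain was the one that fell in WT. The one that fell in KO was Prdm1, the plasma cell regulator BLIMP1, by 1.35 ± 0.30 (adjusted p = 0.0271, lost without KO sham replicate 1 or KO IRI replicate 2 or 3), and the one that rose in both was Sdc1, the plasma cell marker syndecan-1, which epithelial cells also make, by 1.73 ± 0.16 in WT and 0.88 ± 0.16 in KO. Tnfrsf17, the receptor BCMA of plasma cells, was detected on 0 of 12 arrays. Between sham kidneys 1 of the 12 was lower in KO, the endoplasmic reticulum gene Creld2 by -1.03 ± 0.23 (adjusted p = 0.026, lost without any one of 5 arrays).

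Markers of other cells moved as well. Of 10 T and NK cell markers measured, 8 fell in WT kidneys after IRI (median -3.35) and none was called in KO kidneys by limma, where 3 had an unadjusted p under 0.05 (median -1.16), and 5 were lower in KO than in WT sham kidneys (median -2.55), a count of 0 without WT sham replicate 1 or 2 or KO sham replicate 1 or 3 and of up to 8 without another array. The KO count after IRI became 5 without WT sham replicate 3, an array outside that comparison but in the same fit. It stayed 0 without any other array. In WT kidneys Cd3g, Cd8b1, Nkg7 and Cd3d fell most, with differences of -4.27 ± 0.76, -3.99 ± 0.87, -3.97 ± 0.74 and -3.68 ± 0.67. Without WT sham replicate 1 or 2 the 8 calls fell to as few as 3. The summed linear level of the 10, in units of each array's 75th percentile, ranged from 4.61 to 33.2 in WT sham, 2.19 to 2.98 in WT IRI, 2.59 to 4.57 in KO sham and 1.99 to 2.21 in KO IRI kidneys, and each of the 11 markers on the array was well above background on at least 1 array. WT sham replicate 3 was the low WT sham array for Cd3d (-0.89, beside 2.10 and 2.05), as it was for Jchain, Iglv1 and Pou2af1. The same sum over the 7 members ranged from 1.12 to 1.53, 0.858 to 1.03, 1.02 to 1.2 and 0.731 to 0.947 in the 4 groups. Such a sum is set mostly by the brightest genes of a list. Among the members these were Cd79b, Mzb1 and Cd22 by probe 1, the probe with the repeat (mean levels -1.5, -1.75 and -2.02). Fcrla and Ms4a1, at -5.59 and -6.03, added little to it. Of 5 neutrophil markers 4 rose in WT and 2 in KO kidneys (medians 3.59 and 2.33), with sums of 56.3 to 84.9, 109 to 119, 57.6 to 76.2 and 41.3 to 73.0 in the 4 groups. Csf3r, the brightest of the 5, made up most of these sums and was not called after IRI in either genotype. It lay between 5.84 and 6.23 in KO sham and between 5.22 and 5.95 in KO IRI kidneys, so the KO sums do not follow the markers that rose. Of 8 plasmacytoid dendritic cell markers, which share Spib with B cells, 2 fell in WT and 1 in KO kidneys, with medians of -0.31 and -0.38; they were Lair1 (-2.16 ± 0.29) and Spib in WT and Cox6a2 (-3.16 ± 0.73) in KO, and the Cox6a2 call was lost without any one of 5 arrays (adjusted p up to 0.117) and with the replicate number as a block. Of 4 fat markers 3 rose in WT (median 4.17, with Cidec at 5.64 ± 0.51) and 1 in KO kidneys, with sums of 11 to 12.5, 30.1 to 58.1, 14.5 to 18.3 and 25.1 to 30.0. Of 4 red cell markers 3 rose in WT (median 2.71) and none in KO kidneys, where none had an unadjusted p under 0.05, with sums of 12.0 to 13.5, 43.6 to 75.4, 16.4 to 22.8 and 14.1 to 37.8. Of 6 macrophage markers 2 fell and 1 rose in WT, and 1 fell and 1 rose in KO kidneys, with sums of 24.0 to 26.4, 18.3 to 25.1, 22.0 to 25.3 and 16.2 to 19.5. The kidney markers ranged in sum from 674 to 723, 479 to 589, 759 to 847 and 508 to 549, with Lrp2 and Slc34a1, genes of the proximal tubule, lower after IRI in both genotypes (both WT calls were lost without WT sham replicate 1 or 2). The part of these markers in the member differences was not tested.

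Genes whose levels followed the members over the 12 arrays were read by a rule, as descriptions from the 16399 tested genes with an ordinary symbol, all on the same arrays. Fcrla was followed most closely by Btla, an inhibitory receptor of lymphocytes (Pearson r = 0.97), Ccr7, which guides lymphocytes and dendritic cells to lymph nodes (r = 0.966), and Klra4, an NK cell receptor (r = 0.937), with Clec9a, a marker of a dendritic cell subset, at 0.936. Pou2af1 was followed by Asxl3 (r = 0.892) and, among lymphocyte genes, by Lef1 (0.886), Cxcr6 (0.881) and Ifng (0.874). The 8 genes nearest to Ms4a1, led by Msmp (r = 0.975), and those nearest to Cd79b, led by Spa17 (r = 0.926), held none of the further B cell surface genes listed. The members did not form a block, since their pairs ranged from -0.59 (Ms4a1 and Mzb1) to 0.76, and the nearest gene to their mean profile was Apcs, the liver plasma protein serum amyloid P (r = 0.983).

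The labels were checked on Jaml. Its level lay between -0.44 and -0.26 in WT sham and between -3.54 and -2.59 in KO sham kidneys (difference -2.79 ± 0.56, adjusted p = 0.0152). After IRI it lay between -1.80 and 0.55 in WT and between -3.0 and -1.89 in KO kidneys (-1.57 ± 0.56, adjusted p = 0.153). The KO arrays were below the WT arrays in both settings, all 12 were well above background, and the sources used here do not say whether the probe lies in the deleted part. Arrays of a group correlated with r of 0.968 to 0.995 over the genes tested, and no probe was saturated.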

How the data were processed

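The deposited scanner files hold spot intensity values from Agilent Feature Extraction 10.7.1.1, with probes placed on mm9, per the file headers. The processed signal used here is an intensity that the scanner software had background-corrected, per the file headers, and arrays were not yet scaled to each other. The authors' own log2 values, deposited as a separate matrix, served as an alternative. The submitters' processing notes name limma without a version. Control and outlier spots were left out, spots of a probe averaged, log2 taken and the array's 75th percentile subtracted. Probes well above background on at least 3 of 12 arrays were kept (39449), and a gene took its kept probe of highest mean. limma 3.58.1 in R 4.3.3 fitted 1 coefficient per group over 12 arrays; each two-sided p was adjusted by Benjamini-Hochberg over 25947 genes (threshold 0.05), and errors are standard errors. The fit was tested on simulated data.

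The members and the gene lists were chosen with earlier results of these data known; the immunoglobulin list was added after the array's names were seen. All members were named. From each list the rule took genes past the threshold whose groups did not overlap, up to 4 a direction and comparison by fold; for lists of other cells only those beside which a member is read are given. Inpp5d in WT, Cd3d, Iglv1 and Igh-VJ558 in KO and Tnfrsf17 were added after their values were seen; some list genes are counted but not reported here by name. Neighbours are the 8 ordinary symbols of highest Pearson r. Replicate numbers were not taken as pairs, since deviations of same-numbered arrays correlated with r of -0.267 to 0.151. Promoters are RefSeq's (GRCm38.p6). The number of arrays limits the precision. Alternatives tried were other normalizations, background corrections, filters, probe rules, blocks, weights and leaving out each array.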

Additional observations from a re-analysis of the deposited data

How the results depend on the processing

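The counts of members past the threshold were few and moved with the processing. With array weights they were 5 in WT and 4 in KO kidneys (IRI against sham), and 5 between sham kidneys. The main fit gave 1, 2 and 0. The weighted fit called 34.7%, 22.2% and 37.6% of all genes, where the main fit called 12%, 6.16% and 8.85%. Fitted to the arrays of the compared groups alone, the member counts were 0 in WT, 2 between sham kidneys and 0 between genotypes after IRI. Such fits called 1.61%, 15.6% and 0.135% of all genes. Between sham kidneys quantile normalization, normexp and the deposited log2 values each gave 1, and normexp gave 0 between genotypes after IRI. Leaving out 1 array gave 0 to 4 in WT, 1 to 2 in KO, 0 to 1 between sham kidneys and 0 to 1 after IRI. The 4 came without WT IRI replicate 2, in a fit that called 18% of all genes in WT. With the replicate number as a block the counts stayed 1, 2, 0, 1 and 0 and no member's call changed. Among list genes named, Inpp5d, Pou2f2, Spi1, Syk, Cox6a2, Ccl19, Ccl21a and Tnfsf13b lost a call with this block, as did Cd3g between sham kidneys. The slide as a block gave the same 1 and 2. It could not have given other counts, because each slide holds 1 genotype and this fit equals the main one. The causes were not tested.

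Directions that turned belonged to uncalled differences. Cd22 turned to 0.0556 with the mean of its probes and 0.0488 with weights in WT, and its other kept probe, chosen after seeing the data, gave 0.31 in WT, 0.0539 in KO and 0.46 between genotypes after IRI. Pax5 in KO turned to 0.0917 with quantile normalization, 0.0915 with the deposited values and 0.0104 with weights, and to -0.14 with weights between genotypes after IRI, where Ms4a1 turned to -0.044 with normexp. The response difference of Pou2af1 turned to 0.11 with normexp and 1.36 with weights. Leaving out 1 array moved Cd22 between -0.49 and 0.0373 and Mzb1 between -0.22 and 0.14 in WT, and Pax5 between -0.21 and 0.0211 in KO. Between sham kidneys Cd22 ran from -0.27 to 0.26 and Cd79b from -0.25 to 0.12. After IRI Ms4a1 ran from -0.32 to 0.92, Pax5 from -0.22 to 0.31 and Pou2af1 from -1.23 to 0.0699 between genotypes. The response differences ran from -0.35 to 0.0549 for Cd79b and from -0.62 to 0.71 for Pou2af1.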

Other observations

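Factors that draw or sustain B cells were also on the arrays. Of 10 measured, 2 rose and 2 fell in WT kidneys after IRI and 1 rose in KO kidneys. Cxcl13, the chemokine that draws B cells into follicles, was at -5.00, -5.25 and -4.88 in WT sham and -3.67, -3.05 and -3.04 in WT IRI kidneys, and rose by 1.79 ± 0.23 (adjusted p = 0.00263), a call kept in every alternative fit run. Il6, a cytokine that supports plasma cells and is made by many cells, rose by 5.54 ± 1.29 (adjusted p = 0.0239). Cxcl13 was higher in KO than in WT sham kidneys by 1.40 ± 0.23 (adjusted p = 0.00731). The lymph node chemokines Ccl19 and Ccl21a fell in WT kidneys by 1.48 ± 0.42 and 1.09 ± 0.30 (adjusted p = 0.0452 and 0.0428). Tnfsf13b was lower in KO than in WT sham kidneys by -1.91 ± 0.28 (adjusted p = 0.0053), with -0.17 and -0.90 by its other kept probes. This gene, the survival factor BAFF, rose in KO kidneys by 1.11 ± 0.28 (adjusted p = 0.0462) by the probe used, while its other kept probes gave 0.09 ± 0.18 and 0.12 ± 0.64 (adjusted p = 0.838 and 0.942). The calls of Il6, Ccl19, Ccl21a and, in KO kidneys, Tnfsf13b were each lost without any one of 4 or more arrays, with adjusted p up to 0.0773, 0.148, 0.127 and 0.161.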
